A study of Ovis aries with 18 samples.

Results

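IL1A and IL1B, the genes of interleukin-1 alpha and interleukin-1 beta, were followed in sheep whole blood that was stimulated outside the body. All array probes of both genes were taken, by the gene of the accession that the scanner files give for each probe. This gave 2 probes for IL1A (A_70_P051176 and A_70_P051177, NM_001009808) and 1 probe for IL1B (A_70_P039761, NM_001009465), so 3 of the 15008 non-control probes and 2 of the 949 genes that could be named. Blood came from 6 healthy adult female sheep, named 71Y, 51Y, 20, 170, 80 and 65Y. Blood of each animal was incubated for 90 minutes with phosphate-buffered saline (PBS, the control), with 1 µg of lipopolysaccharide (LPS) or with 10 µg of monophosphoryl lipid A (MPLA), and was measured on 1 array per animal and treatment, 18 arrays in all. The labels give these amounts without a volume, and the study's methods give them per mL. The labels state no genotype or strain. The agonist and its amount changed together, so where MPLA is set against LPS the kind of agonist and its amount cannot be told apart.

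Interleukin-1 alpha and interleukin-1 beta are cytokines that signal through the same receptor, IL1R1, and drive fever, leukocyte recruitment and the production of further cytokines. Monocytes and macrophages are main sources of both, and transcription of both genes is switched on through NF-kB when the receptor TLR4 senses bacterial lipid A. Interleukin-1 alpha is active as its full-length precursor and can act at the membrane or after release from damaged cells, whereas the precursor of interleukin-1 beta has to be cut, mostly by caspase-1, before it can act. The arrays measured RNA only, so neither cleavage nor release was observed. LPS is the outer membrane glycolipid of Gram-negative bacteria, and MPLA is a derivative of its lipid A moiety that has lost a phosphate group. In the RefSeq annotation of the sheep assembly ARS-UI_Ramb_v3.0, IL1A and IL1B are neighbours with no other annotated gene between them.

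The scanner files gave 1 intensity per spot. Each IL1A probe had 1 spot per array and the IL1B probe had 5, whose standard deviation on the log2 scale had a median of 0.17 and reached 0.48 on 1 array. A level below is the log2 processed signal of a probe, from which log2 of the 75th percentile of its array was subtracted, so a level of 0 is the brightness of that percentile. The 18 arrays differed in brightness, with a 75th percentile between 24.8 and 124.2 intensity units and between 23.9% and 45.1% of probes well above background by the scanner software. Levels of different probes are not ranked against each other, because probes differ in how strongly they bind. CD14 and LYZ, which mark monocytes, were well above background on all 18 arrays, as were the T cell genes CD3D and CD3E, the NK cell gene GNLY and HBB of red cells. Of the 13 neutrophil markers 2 were named on the array, ITGAM was never well above background and LTF was so on 1 or 2 of 6 arrays per treatment. No B cell or platelet marker was named.

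IL1A was not detected in control blood and was detected in stimulated blood. With PBS, probe A_70_P051176 exceeded background on 0 of 6 arrays, and 3 of the 6 values were the lowest value that the software wrote on that array. Its level with PBS ranged from -3.64 to -2.09 with a median of -2.56. With LPS it was well above background on 6 of 6 arrays, and its level ranged from -0.013 in animal 65Y over a median of 1.68 to 2.90 in animal 20. With MPLA it was again well above background on 6 of 6 arrays, with a lowest level of 0.97 in animal 20, a median of 1.82 and a highest level of 2.65 in animal 71Y. The lowest stimulated level lay above the highest control level as measured. All control levels were background values, so this separation follows largely from detection. On the PBS array of animal 170 the dimmest signal well above background had a level of 0.18, above the lowest LPS level. Of all 4122 tested probes, 0.679% were higher with LPS and 0.607% higher with MPLA without overlap. Animal 20 thus stood highest of the 6 with LPS and lowest of the 6 with MPLA.

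Since IL1A had only a background value with PBS, its rise is a lower bound. The bound sets the mean of the stimulated arrays against the mean, over the PBS arrays, of whichever is higher, the probe's own signal or the dimmest signal that passed as well above background there. By A_70_P051176, IL1A was at least 6.42-fold higher with LPS, from a stimulated mean of 1.53 against a bound of -1.16 on the log2 scale. With MPLA it was at least 7.89-fold higher, from a mean of 1.83. The bound depended on the background correction, and with normexp it was 2.74-fold (75th percentile scaling) or 2.90-fold (quantile normalization) for LPS and 3.53-fold or 3.28-fold for MPLA. All 6 animals lay above their own bound with either agonist. In whole blood, a change in the number of cells that express a gene and a change in RNA per cell cannot be told apart. This holds for IL1B too.

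The second IL1A probe, A_70_P051177, gave the same order of treatments at a weaker signal. It was detected by the same criterion on 0 of 6 arrays with PBS, on 5 of 6 with LPS and on 6 of 6 with MPLA, and the LPS array that missed was that of animal 65Y, in which the other probe was also lowest. Its levels ran from -3.64 to -2.12 with PBS, with a median of -3.04. They ran from -1.70 to 1.69 with LPS, with a median of 0.33, and from -0.68 to 1.70 with MPLA, with a median of 0.78. By this probe IL1A was at least 2.57-fold higher with LPS and at least 3.51-fold higher with MPLA, and 5 of 6 animals lay above their own bound with each. With normexp the bound was 1.91-fold (75th percentile scaling) or 1.85-fold (quantile normalization) for LPS and 2.21-fold or 2.11-fold for MPLA. The LPS mean includes the undetected value of animal 65Y. Within an array, the signal of A_70_P051176 exceeded that of A_70_P051177 by 1.32 ± 0.23 on the log2 scale with LPS (SD, n = 6 arrays) and by 1.17 ± 0.27 with MPLA. The LPS gaps include that of animal 65Y, the largest at 1.68, where A_70_P051177 was not well above background. As measured, the gap between the probes varied less between animals than the level of either probe did.

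IL1B was present in control blood and rose with both agonists. Its probe was well above background on all 18 arrays. With PBS, its level was lowest in animal 170 at 1.00, had a median of 2.62 and was highest in animal 71Y at 4.77, a 13.7-fold spread between animals. With LPS it ranged from 4.14 in animal 65Y over a median of 5.34 to 6.12 in animal 71Y, a 3.95-fold spread. With MPLA it ranged from 3.81 in animal 20 over a median of 5.40 to 6.90 in animal 71Y, an 8.50-fold spread. Animal 71Y was the highest of the 6 under each treatment, and its control level exceeded the LPS level of animal 65Y and the MPLA levels of animals 20 and 170. The levels of IL1B with and without agonist therefore overlapped between animals, although every animal was higher with either agonist than with PBS.

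**Figure D1:**
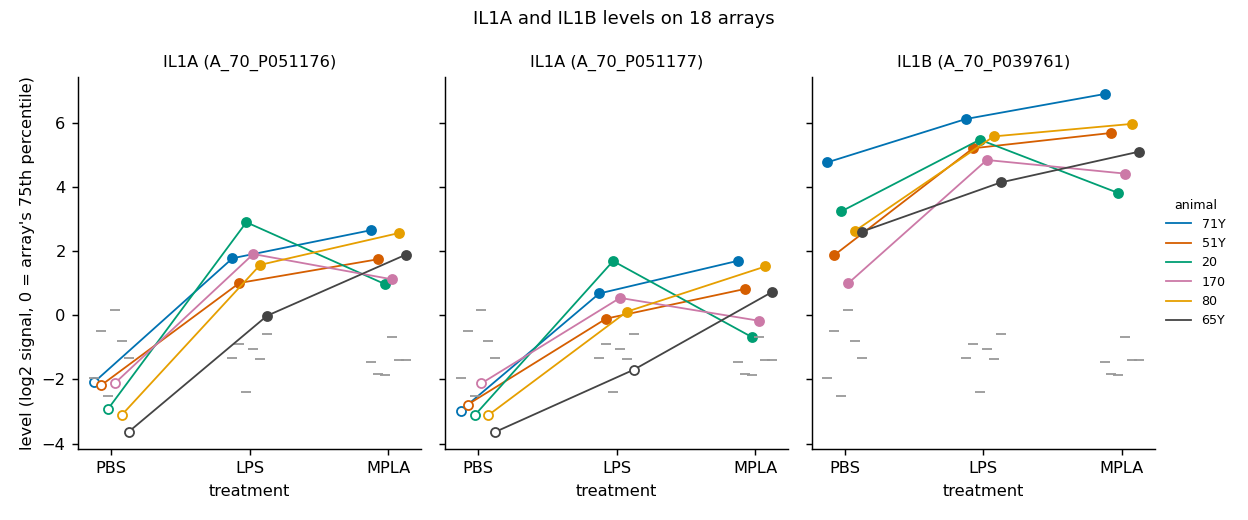
Levels of the 2 IL1A probes and the IL1B probe (vertical axis, log2 signal with 0 at the array's 75th percentile) under PBS, LPS and MPLA, with 1 line per animal. Filled points are well above background and open points are not, and grey ticks mark the lowest level among probes well above background on that array. All IL1A points with PBS and 1 with LPS are open, all IL1B points are filled, and the lines of animals 20 and 170 go down from LPS to MPLA in every panel while the other 4 go up.

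The comparison of LPS with PBS asked how blood of the same animal responded to LPS. IL1B rose 5.81-fold, a log2 change of 2.54 ± 1.00 (SD, n = 6 animals), with a 95% confidence interval from 1.80 to 3.27 and an adjusted p of 0.00365 by limma with animal as a block. The rise in single animals ran from 1.35 in animal 71Y to 3.84 in animal 170, which were the animals with the highest and the lowest control level. The control level is itself part of the change, so no test was made of that order. For IL1A, the fitted log2 change was 4.21 ± 0.94 by A_70_P051176 (limma adjusted p = 0.000133) and 3.16 ± 0.99 by A_70_P051177 (limma adjusted p = 0.000721), on PBS values that were background values. Among the 4122 probes tested, 37 were called in either direction (0.898%), 0.801% were called higher and 0.097% lower. The IL1A probes passed the filter on dim probes only through stimulated arrays, A_70_P051177 only through those with MPLA, whereas IL1B passed it under every treatment.

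The comparison of MPLA with PBS asked the same of MPLA. IL1B rose 6.17-fold, a log2 change of 2.63 ± 1.18 (SD, n = 6), with a 95% confidence interval from 1.80 to 3.46 and a limma adjusted p of 0.00531. In single animals the rise ran from 0.57 in animal 20 to 3.81 in animal 51Y. For IL1A, the fitted log2 change was 4.51 ± 0.97 by A_70_P051176 (limma adjusted p = 5.9e-05) and 3.61 ± 1.17 by A_70_P051177 (limma adjusted p = 0.000658), again on PBS values that were background values. Here 41 of the tested probes were called in either direction (0.995%), 0.752% were called higher and 0.243% lower. Without animal 20 the count in either direction was 284. IL1B was higher in 6 of 6 animals with each agonist, and the exact two-sided sign-flip p was 0.031, the smallest that 6 animals allow. The IL1A probes gave the same count and p, but against background values. They had passed the filter only through stimulated arrays, so that outcome was nearly fixed in advance and is no further support. The comparisons of LPS and of MPLA with PBS share the PBS arrays and are not independent of each other.

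Arrays were hybridised on 3 slides, and each animal had its arrays on 1 slide, apart from the MPLA array of animal 170. Within the slides, IL1B was higher with LPS by 2.60, 2.24 and 2.78 on the log2 scale, and with MPLA by 2.13, 2.91 and 2.19, where the first MPLA value rests on animal 71Y alone. IL1A by A_70_P051176 was higher with LPS by 3.95, 4.15 and 4.51 and with MPLA by 4.75, 5.60 and 3.92. With normexp background correction followed by 75th percentile scaling, the IL1A change with LPS was 1.59 (limma adjusted p = 0.473) and that of IL1B was 1.76 (limma adjusted p = 0.842), so neither was called. With slide as the block in place of animal, IL1B was not called with LPS (2.54, limma adjusted p = 0.0745) or with MPLA (2.76, limma adjusted p = 0.102). IL1B was also not called, at the same size, with MPLA when animal was left out of the model (limma adjusted p = 0.0716), nor in the methods' paired test per probe after Benjamini-Hochberg adjustment with LPS (adjusted p = 0.210) or MPLA (adjusted p = 0.246).

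The comparison of MPLA with LPS asked whether the agonists differed. By limma 0 of the 3 probes were called, against 0.0485% of all tested probes. At an unadjusted p under 0.05 the count was 0 of 3 against 190 of 4122, and in the methods' paired test at its own threshold it was 0 of 3 against 52 of 4122. IL1A by A_70_P051176 was 0.30 ± 1.39 higher with MPLA on the log2 scale (SD, n = 6 animals), with a 95% confidence interval from -0.66 to 1.25 and a limma adjusted p of 0.882. By A_70_P051177 the difference was 0.45 ± 1.71, with an interval from -0.70 to 1.60 and a limma adjusted p of 0.858. IL1B was 0.087 ± 0.98 higher, with an interval from -0.63 to 0.80 and a limma adjusted p of 0.954. Differences of the size of these intervals in either direction are thus not excluded, at amounts that were not matched.

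Small mean differences came from animals that moved in opposite directions. For IL1B, MPLA exceeded LPS by 0.78 in animal 71Y, 0.48 in 51Y, 0.39 in 80 and 0.96 in 65Y, and fell short of it with differences of -1.66 in animal 20 and -0.43 in animal 170. For IL1A by A_70_P051176, the differences were 0.88, 0.74, 0.99 and 1.90 in the same 4 animals, and -1.93 and -0.79 in animals 20 and 170. A_70_P051177 gave 1.02, 0.92, 1.41 and 2.43, and -2.37 and -0.71. Its 2.43 in animal 65Y rests on an LPS value that was not well above background. With values floored the mean difference of this probe was 0.26. As measured, the 3 probes had the same sign in every animal, and animal 20 was the lowest and animal 65Y the highest by each of them. By slide, the mean difference of IL1B was 0.78 (animal 71Y alone), 0.68 and -0.59, and that of A_70_P051176 was 0.88, 1.45 and -0.59. Without animal 65Y the mean difference of A_70_P051176 was -0.022 and that of IL1B -0.088, and without animal 71Y that of IL1B was -0.051.

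**Figure D2:**
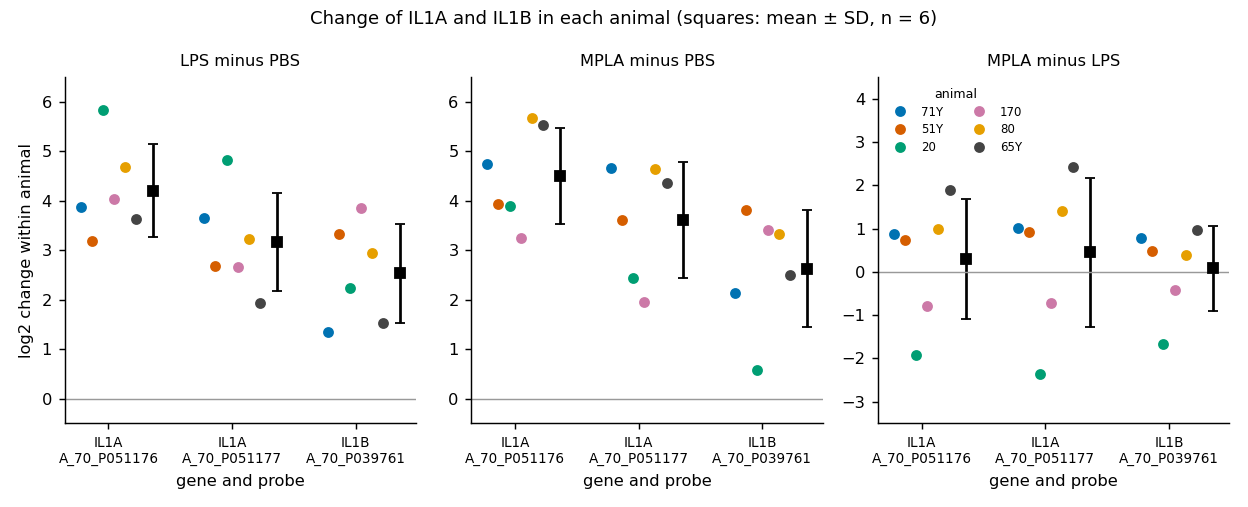
Log2 change within each animal (vertical axis, 1 coloured point per animal) of the IL1A and IL1B probes for LPS minus PBS, MPLA minus PBS and MPLA minus LPS. Black squares and bars are the mean and SD of 6 animals. All points of the first and second panels lie above 0, and in the third panel animals 20 and 170 lie below 0 and the other 4 above it for each probe.

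The level of IL1B followed the brightness of the array. With PBS, IL1B was highest on the brightest array, that of animal 71Y, and lowest on the dimmest, that of animal 170. Across the 6 PBS arrays Pearson's r between the IL1B level and log2 of the 75th percentile was 0.94 (exact permutation p = 0.00278, adjusted p = 0.0139) and Spearman's rho was 0.94 (exact permutation p = 0.0167, adjusted p = 0.0417). Without the 2 arrays farthest from the median brightness r was 0.90. With LPS r was 0.80 (exact permutation p = 0.0472, adjusted p = 0.0472) and rho 0.77 (exact permutation p = 0.103, adjusted p = 0.103), and r was 0.74 without the 2 farthest arrays. With MPLA r was 0.94 (exact permutation p = 0.00972, adjusted p = 0.0243) and rho 0.89 (exact permutation p = 0.0333, adjusted p = 0.0556), and r was 0.87 without the 2 farthest. The relation held although levels were already scaled to that percentile. Over all tested probes the median r was -0.41 with PBS, -0.12 with LPS and -0.40 with MPLA, and 0.412%, 2.79% and 0.315% of them had an r at least as high as that of IL1B. These 3 relations and the pair that follows, 5 in all, were adjusted together, and a slide held too few arrays of a treatment for a value within slides.

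The difference between MPLA and LPS within an animal moved with the difference in brightness of its arrays. In animal 20 the MPLA array had 0.406 times the brightness of the LPS array, and IL1A and IL1B were lowest there. In animal 65Y it had 2.46 times the brightness, and both were highest there. Over the 6 animals r was 0.87 for IL1A by A_70_P051176 (exact permutation p = 0.0292, adjusted p = 0.0365), with a rho of 0.77 (exact permutation p = 0.103, adjusted p = 0.103). For IL1B r was also 0.87 (exact permutation p = 0.0208, adjusted p = 0.0347), with a rho of 0.94 (exact permutation p = 0.0167, adjusted p = 0.0417). Without animals 20 and 65Y r was 0.36 for IL1A and 0.40 for IL1B, so both relations rest on those animals. With array brightness as a covariate beside animal, an alternative chosen after seeing the data, the difference between MPLA and LPS was 0.099 for IL1A and -0.054 for IL1B, while the changes from PBS to LPS were 4.19 and 2.49 and were still called. Whether RNA amount, labelling or the blood itself set the brightness was not tested.

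**Figure D3:**
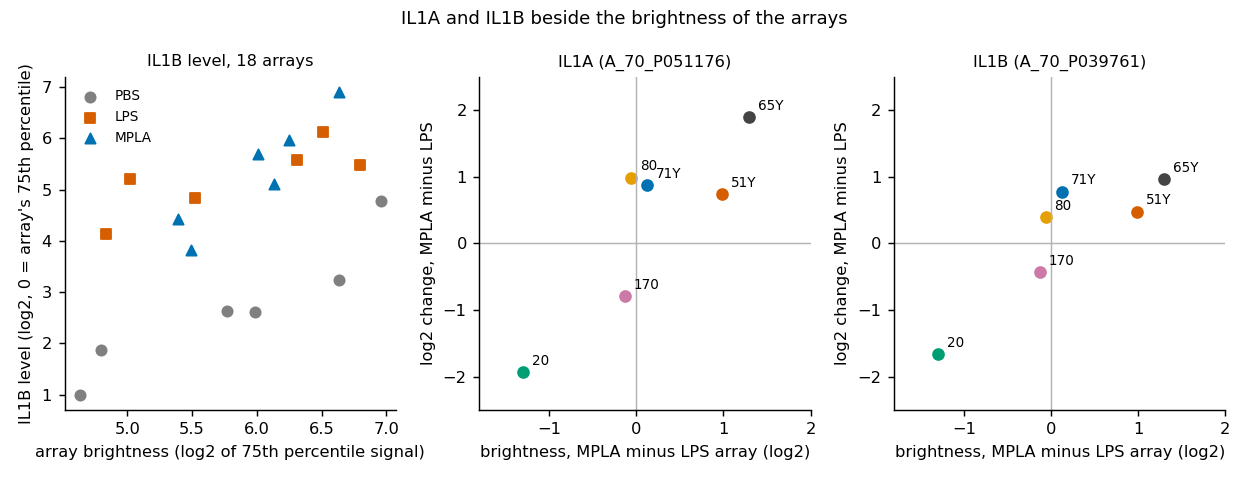
Left, the IL1B level (log2, 0 at the array's 75th percentile) against array brightness (log2 of the 75th percentile signal) on 18 arrays, by treatment. Middle and right, the log2 difference between MPLA and LPS of IL1A and IL1B against the log2 difference in brightness of the same arrays, 1 point per animal. Within each treatment IL1B is higher on brighter arrays, and animals 20 and 65Y form the ends of the middle and right panels.

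IL1A and IL1B were then compared by the size of their change within animals. By A_70_P051176, the fitted change of IL1A exceeded that of IL1B by 1.67 ± 1.42 on the log2 scale with LPS (5 of 6 animals, exact sign-flip p = 0.0625) and by 1.88 ± 1.52 with MPLA (5 of 6 animals, exact sign-flip p = 0.0938). When values were floored at the dimmest signal that passed as well above background on the array, the excess was 0.14 ± 2.19 with LPS (exact sign-flip p = 0.875) and 0.35 ± 2.15 with MPLA (exact sign-flip p = 0.656). By A_70_P051177 the excess was smaller, at 0.62 ± 1.53 with LPS and 0.99 ± 1.52 with MPLA (4 of 6 animals each). With values floored it had the opposite sign by that probe, at -0.99 ± 2.24 and -0.82 ± 2.08. By A_70_P051176 the excess had the opposite sign with normexp background correction, at -0.49 with LPS and -0.42 with MPLA after quantile normalization. A larger rise of IL1A than of IL1B was therefore not established, since the control level of IL1A was not measured.

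Of the 84 genes listed for the IL-1 pathway, 22 had a named probe and 14 of these were tested. A gene was counted when any of its tested probes was called, and its printed value is that of its tested probe of the highest mean level. Leaving out IL1A and IL1B, 7 of the 12 tested genes rose with LPS, 6 rose with MPLA and 0 fell with either by limma, beside 0.801% and 0.752% of all tested probes called higher. The counts include IL6 and CSF2, which were well above background on 0 PBS arrays. Both passed the filter only through stimulated arrays, CSF2 only through those with MPLA, so they could hardly be called lower. At an unadjusted p under 0.05 by limma, 1 gene was lower with LPS (IL18, by the dimmer of its probes) and 1 with MPLA (CD14), beside 156 and 286 of all 4122 probes in either direction, and the methods' paired test at its own threshold found 0 lower. Without animal 20, IL18 was called lower with MPLA by that dimmer probe (-0.80, limma adjusted p = 0.0247). The median change of these 12 was 1.89 with LPS and 1.45 with MPLA, against -0.0092 and -0.094 over all tested probes. The list was written with earlier results of these arrays known, so its direction is not independent evidence. Of the whole list, 9 genes were called higher with LPS and 8 with MPLA. With normexp and 75th percentile scaling 0 were called with LPS, and in the methods' paired test after Benjamini-Hochberg adjustment 3 were called with LPS and 2 with MPLA.

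The third ligand gene of the family that was tested, IL18, which needs caspase-1 as IL1B does, showed a log2 change of -0.28 ± 0.78 with LPS and -0.44 ± 0.78 with MPLA by its brighter probe, A_70_P050912. By A_70_P050911 the changes were -0.45 ± 0.45, lower in 5 of 6 animals, and -0.48 ± 0.79, and neither probe was called. None of the 9 listed receptor genes, IL1R1 and the decoy IL1R2 among them, was named, and neither was the receptor antagonist IL1RN or caspase-1. Of the maturation genes, CAPN2, a subunit of the calpain proteases that can cut the interleukin-1 alpha precursor, changed by -0.045 with LPS and -0.024 with MPLA by its brighter probe and by -0.49 and 0.051 by the other, and was not called. CAPN1 was well above background on at most 1 array of a treatment and was not tested. In the signalling chain, the kinase IRAK4 changed by 0.047 with either agonist by its tested probe and was not called. Its other probe was well above background on 2, 4 and 5 of 6 arrays with PBS, LPS and MPLA. That probe changed by 0.42 and 0.60 and was not tested. The adaptor MYD88 and the transcription factor subunit FOS were never well above background. Of the LPS receptor genes, CD14, the co-receptor on monocytes, changed by -0.32 ± 0.22 with LPS and -0.48 ± 0.35 with MPLA and was not called. TLR4 itself was well above background on 1 of 6 arrays per treatment.

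Apart from IL1A and IL1B, the genes that rose were all in the group of known targets of IL-1 and NF-kB, of which 8 of 20 were tested, 7 rose with LPS and 6 with MPLA. IL6, a cytokine of the acute phase response, was not well above background with PBS and changed by a fitted 4.47 with LPS and 3.69 with MPLA. CSF2, the growth factor GM-CSF, behaved likewise with 3.30 and 3.97. CXCL1, a neutrophil chemokine, rose by 2.59 and 1.77, and NFKBIZ, a nuclear regulator of NF-kB, by 2.61 and 1.79. SOD2, the mitochondrial superoxide dismutase, rose by 2.35 and 2.16, and TNF, an early inflammatory cytokine, by 1.42 and 1.14. PTGS2, the inducible cyclooxygenase, rose by 2.63 with LPS, and its change of 1.76 with MPLA missed the threshold (limma adjusted p = 0.0516). CXCL8, a neutrophil chemokine, changed by 1.12 and 0.55 and was not called with either.

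**Figure D4:**
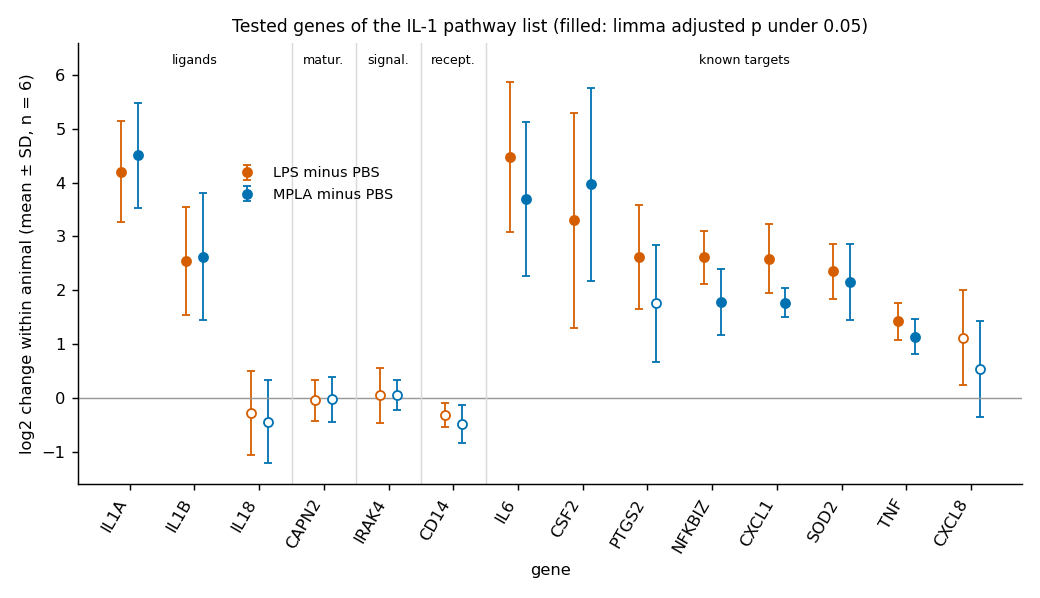
Log2 change within animals (vertical axis, mean and SD of 6 animals) with LPS and with MPLA against PBS for the 14 tested genes of the IL-1 pathway list, ordered by role. Filled points had a limma adjusted p under 0.05. IL1A, IL1B and most known targets lie above 0, whereas IL18, CAPN2, IRAK4 and CD14 lie near or below 0 with open points.

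For MPLA against LPS, 0 genes of the list were called by limma. At an unadjusted p under 0.05, beside 190 of all 4122 probes, limma found 5 genes lower with MPLA (CXCL1, CXCL8, IL6, NFKBIZ and PTGS2) and 1 higher, CAPN2 by its dimmer probe A_70_P039736 (0.54). The methods' paired test at its own threshold, which 52 of all probes passed, found 4 lower (CXCL1, IL6, NFKBIZ and PTGS2). IL6 (-0.78), CXCL1 (-0.82), NFKBIZ (-0.82), CXCL8 (-0.58) and TNF (-0.28) stood below their LPS level in all 6 animals when MPLA was given, CXCL8 by its brighter probe, while IL1A and IL1B were higher with MPLA in 4 of 6. Whether IL1A and IL1B differed from these genes in that respect was not tested. PTGS2 was higher with MPLA in 1 of 6 animals, and SOD2 and CSF2, like IL1A and IL1B, in 4 of 6.

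Among 377 other named genes that were tested, those whose changes lay nearest to IL1A over the 12 within-animal changes from PBS were IL10, with a mean absolute difference of 1.14 on the log2 scale, IL6 (1.16), LOC101104661 (1.31), CSF2 (1.58) and IL1B (1.82). IL10, a cytokine that restrains inflammation, rose by 2.94 with LPS and 3.59 with MPLA. Those nearest to IL1B were SOD2 (0.866), CLEC4E, a C-type lectin receptor of myeloid cells (1.02), SERPINB2, an inhibitor of plasminogen activators (1.13), CXCL1 (1.18) and CXCL16, a chemokine (1.20). IL6 and CSF2 shared with IL1A that no PBS array showed them well above background, so their nearness rests partly on background values. With values floored, 2 of the 5 genes nearest to IL1A stayed the same.

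Of the cell type markers, 55 genes were listed, 11 were named and 6 were tested, and 0 were called in any comparison by limma. At an unadjusted p under 0.05, 1 was lower with MPLA than with PBS (CD14) (of 286 probes in all) and 0 differed otherwise. The summed level of the 3 named monocyte genes, in units of the array's 75th percentile, was 26.8 to 53.8 with PBS, 25.5 to 46.5 with LPS and 21.8 to 57.6 with MPLA, and FCGR1A among them was never well above background. The ranges of the 3 treatments overlapped, as did those of IL1B. LYZ makes up most of that sum, with a mean level of 4.98 over the arrays beside 1.64 for CD14. Within animals, CD14 was higher than with PBS in 1 of 6 with each agonist, and LYZ in 1 with LPS and 2 with MPLA. Whether the share of monocytes changed was not tested.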

How the data were processed

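Whole blood RNA of 6 sheep under 3 treatments was measured on 18 one-colour Agilent arrays. Per the labels, the authors scanned the arrays and extracted them with Agilent Feature Extraction, and 11.5.1.1 is the version in the file headers. The values analysed were the deposited intensities after the software's background subtraction (the processed signal), in which the software had replaced the lowest values by a surrogate (32.1% to 52.8% of spots per array). The software's flag for signals well above background was deposited with it. A second deposited file, a table of ratios made by the authors, divides each signal by about the 75th percentile of its array, at 0.98 to 1.00 of it on 16 arrays but 0.790 and 0.794 on the LPS array of animal 170 and the MPLA array of animal 80. It served as an alternative. The human arm was not analysed here.

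Spots of a probe were averaged as log2 and the array's 75th percentile was subtracted. Probes well above background on all 6 arrays of at least 1 treatment were tested (4122). Pairs of treatments were fitted with limma 3.58.1 in R 4.3.3 (lmFit, eBayes, two-sided) on 12 arrays with animal as a block, as in the paired test of the study's methods, with Benjamini-Hochberg adjustment over all tested probes and a threshold of 0.05. Animals are named in the sample titles, and deviations of arrays of one animal correlated at 0.59 on average (lowest of 18 pairs 0.13). Intervals are 95% limma intervals. Sign-flip tests enumerated 64 patterns.

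Symbols came from RefSeq accessions (1265 of 2200 matched) and 7 from the study's table. The rule named all IL1A and IL1B probes, tested pathway genes, and the 5 genes nearest to each, each by its probe of smallest difference. A gene of a list was called if any tested probe was, and its values are those of its tested probe of highest mean level. The members and lists were chosen with earlier results of these data known. Alternatives covered scaling, background (normexp on the median spot signal, offset 50), the authors' table, filter, block, slide, test, floor, outlier spots and each animal left out.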

Additional observations from a re-analysis of the deposited data

How the results depend on the processing

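Against PBS, A_70_P051176 and IL1B kept their direction under all 18 alternatives and without each animal. Called status was lost with normexp and 75th percentile scaling for LPS (IL1A 1.59, adjusted p = 0.473, and IL1B 1.76, adjusted p = 0.842). For IL1B it was also lost without the replicate block with MPLA (2.63, adjusted p = 0.0716), with slide in place of animal (LPS 2.54, adjusted p = 0.0745, and MPLA 2.76, adjusted p = 0.102) and in the methods' paired t-test after Benjamini-Hochberg (LPS 2.54, adjusted p = 0.210, and MPLA 2.63, adjusted p = 0.246). These are limma adjusted p except for the last pair. The cause was not tested. The pairing changed no other call of IL1A or IL1B. The weaker IL1A probe was called under 15 of 18 alternatives with LPS and 16 with MPLA. It was lost with floored values (LPS 1.55, MPLA 1.81), in the methods' test after adjustment (adjusted p = 0.100 and 0.0988) and, for LPS, with normexp and the 75th percentile (1.00). Leaving out each animal gave 3.88 to 4.41 and 4.27 to 4.76 for IL1A with LPS and MPLA, and 2.28 to 2.78 and 2.39 to 3.04 for IL1B, all called. MPLA against LPS had no call of IL1A or IL1B. The difference ranged from -0.022 to 0.744 for IL1A and from -0.088 to 0.437 for IL1B when animals were left out, negative without animal 65Y (both) or 71Y (IL1B, -0.051), and was -0.054 for IL1B with the brightness covariate.

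By A_70_P051176, the excess of the IL1A over the IL1B change turned to -0.49 (LPS) and -0.42 (MPLA) with normexp and quantiles and to -0.17 and -0.43 with normexp and the 75th percentile. It passed the threshold with quantile normalization (2.05 and 2.26) and, for MPLA, in the authors' table (1.93), each at an exact sign-flip p of 0.031. Probes called for LPS ranged from 2 (normexp, 75th percentile) to 71 (the methods' t-test at its own threshold), for MPLA from 14 (the same test after adjustment) to 284 (without animal 20), and for MPLA against LPS from 0 to 52. Scaling by the median moved the median change of all probes with MPLA from -0.09 to 0.14 and the share of calls that were higher from 75.6% to 86%. Precision is limited by 6 animals, and IL1A with PBS by background.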
